A study of Mus musculus with 4 samples.

Results

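The 10 genes described here encode the machinery that makes and loads peptides for major histocompatibility complex (MHC) class I: B2m, Tap1, Tap2, Tapbp, Psmb8, Psmb9, Psmb10, Nlrc5, Erap1 and Psme1. They were taken by symbol from the 19938 genes that had a probe set annotated with exactly 1 gene symbol, and each was represented by the probe set with the highest mean over the 4 arrays. All 10 were found, and all 10 were among the 13956 genes bright enough to be tested. Their levels were compared between regulatory T (Treg) cells without and with the deubiquitinase CYLD, an inhibitor of NF-kB signalling. Treg cells are the Foxp3-dependent CD4 T cells that hold immune responses in check.

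The knockout group comprised 2 arrays of YFP-positive Treg cells whose donors were Cyld fl/fl and carried Foxp3-yfp-cre, and the wild-type group 2 arrays of such cells whose donors were Cyld+/+ and carried Foxp3-yfp-cre, all on the C57Bl6 background. Both groups therefore carried the Cre recombinase and yellow fluorescent protein (YFP) allele at Foxp3, and both came from mice 6 to 8 weeks old. In the knockout the deletion was directed at cells that express Foxp3. The labels name spleen with lymph nodes in one field and spleen alone in another, and they do not say whether replicates came from separate or pooled mice. The p-values then measure only the spread between these samples, which may be partly technical. Sex-linked genes, given below, differed between the knockout replicates, so those 2 arrays are unlikely to be technical copies of 1 sample.

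Cells chop cytosolic proteins with the proteasome, and interferon-inducible catalytic subunits turn it into the immunoproteasome, whose products suit class I binding. The peptides enter the endoplasmic reticulum through the TAP transporter, are trimmed there and are fitted into a class I heavy chain paired with beta-2 microglobulin. The NLR protein NLRC5 is a transactivator of many of these genes in T cells, and interferon regulatory factors and NF-kB act on several of their promoters.

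Promoter sequences credited to RefSeq (GRCm38.p6) were matched by symbol for 8 of the 10 genes, the unmatched ones being Nlrc5 and Tap2. Each covered 250 bases before and 50 after the annotated start. These 3 motifs were searched on both strands: GAAA-NN-GAAA (N for any base, hyphens only to part the blocks), the core of the interferon-stimulated response element, GGG-NN-TTTCC, a form of the NF-kB site, and CCAAT, the NF-Y box. The B2m window is shown because it holds an interferon and an NF-kB match 3 bases apart, and the interval between the Psmb9 and Tap1 starts because those genes face away from each other across 225 bases. Capitals mark the interferon and NF-kB matches in the first sequence and the NF-Y box in the second.
B2m upstream window, chr2:122147437-122147686, plus strand: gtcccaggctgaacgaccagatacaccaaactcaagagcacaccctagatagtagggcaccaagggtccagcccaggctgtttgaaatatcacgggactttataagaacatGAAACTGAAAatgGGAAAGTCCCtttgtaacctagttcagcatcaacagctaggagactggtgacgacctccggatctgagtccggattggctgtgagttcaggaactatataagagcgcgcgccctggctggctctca
Psmb9 to Tap1 interval, chr17:34187331-34187555, plus strand: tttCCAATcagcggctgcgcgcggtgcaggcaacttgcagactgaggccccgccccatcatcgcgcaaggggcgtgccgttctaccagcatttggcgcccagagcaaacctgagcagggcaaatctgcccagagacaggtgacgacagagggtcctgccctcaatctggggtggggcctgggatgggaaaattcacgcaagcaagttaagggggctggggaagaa

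The interferon core lay in 3 of the 8 promoters, those of B2m, Erap1 and Psme1, and in 3.44% of all 32851 promoters of the same length. Counted from the start, the B2m match ran from -139 to -130, upstream. The Erap1 match crossed the start (-4 to 6), and the Psme1 match lay after it (10 to 19). The NF-kB form was found in B2m alone among the 8 and in 1.63% of all, and CCAAT in B2m, Psmb9, Tap1 and Tapbp and in 37.4% of all. The CCAAT matches of Psmb9 and Tap1 are 1 and the same site, the box in capitals in their shared interval. The NF-kB match of B2m and the interferon matches of Erap1 and Psme1 read on the strand opposite to the one printed. The remaining interferon matches are shown in capitals with their flanks, on the plus strand.
Erap1, chr13:74639839-74639868: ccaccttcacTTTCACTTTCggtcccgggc
Psme1, chr14:55578493-55578522: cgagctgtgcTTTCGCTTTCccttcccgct
These matches are letters in the genome and were not measured as bound sites.

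Cyld itself read 284 and 218 in knockout cells, against 524 and 502 in wild-type cells, and passed the test (log2 fold change -1.04, limma adjusted p = 8.96e-08). Its probe set may lie outside the deleted part, so the value does not measure deletion. The Treg markers Foxp3, Il2ra and Ikzf2 read 1059 to 2579 on the 4 arrays, with 0 of 7 markers past the threshold. Knockout replicate 2 stood apart from the other arrays. The Y-linked Kdm5d read 127 there, against 268 in knockout replicate 1 and 271 and 275 in wild-type cells. Y-linked Uty (283 and 132) and Eif2s3y (221 and 98.9) also read lower in knockout replicate 2 than in 1. Xist, transcribed in female cells, read 1630 and 2321 in knockout cells, against 1306 and 1403 in wild-type cells (limma adjusted p = 0.0291). The share of male and female donors may thus differ between the arrays and was not tested. Proliferation genes ran higher in knockout replicate 2 than in knockout replicate 1 (Ccnb2 at 1562 and 849). Proliferation genes, chosen after the members and marker lists, were also higher in the knockout. Of these 5, 5 passed the test, beside 4.79% of all tested genes called higher. In all 5 both knockout arrays were above both wild-type arrays, beside 22.5% of all tested genes. Their median log2 fold change was 1.07. Mki67, the Ki-67 gene, read 638 and 787 in knockout cells, against 364 and 287 in wild-type cells. Macrophage markers were lower in the knockout, with 10 of 11 tested members lower and 0 higher, beside 3.50% and 4.79% of all tested genes. Their summed intensity over 15 members was 1351 and 1607 in knockout cells, against 3078 and 2928 in wild-type cells, and no marker is listed at 0. The part of proliferation and of macrophage RNA in the values of the class I and proteasome genes was not tested, and in bulk samples a different share of cells and a different amount of RNA per cell cannot be told apart.

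None of the class I processing genes passed the test. With limma's moderated fit over all tested genes and an adjusted p under 0.05, 0 of 10 members were higher and 0 were lower, where 4.79% of all tested genes were higher and 3.50% lower in the knockout, 8.3% in either direction. At an unadjusted p under 0.05 there were 2, Psmb9 and Tapbp, both with a log2 fold change above 0. Ranked by log2 fold change among all tested genes, they stood at percentiles 93.0 and 92.1. The share of all tested genes at that unadjusted p was not counted. Many other tested genes had a p as small, since limma's adjusted p for the 2 was 0.152 and 0.187. The 2 are therefore not read as a result. The smallest difference called anywhere in the comparison was 1.40-fold, and the 95% intervals of the 10 members, each a fold of knockout over wild type, lay between 0.70 for Nlrc5 and 1.65 for Psmb9. A 2-fold rise or fall lay outside every member's interval, while a 1.5-fold rise lay inside those of Psmb9, Tapbp, Psme1, Psmb10 and Psmb8. The intervals rest on a spread pooled over all tested genes.

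**Figure D1:**
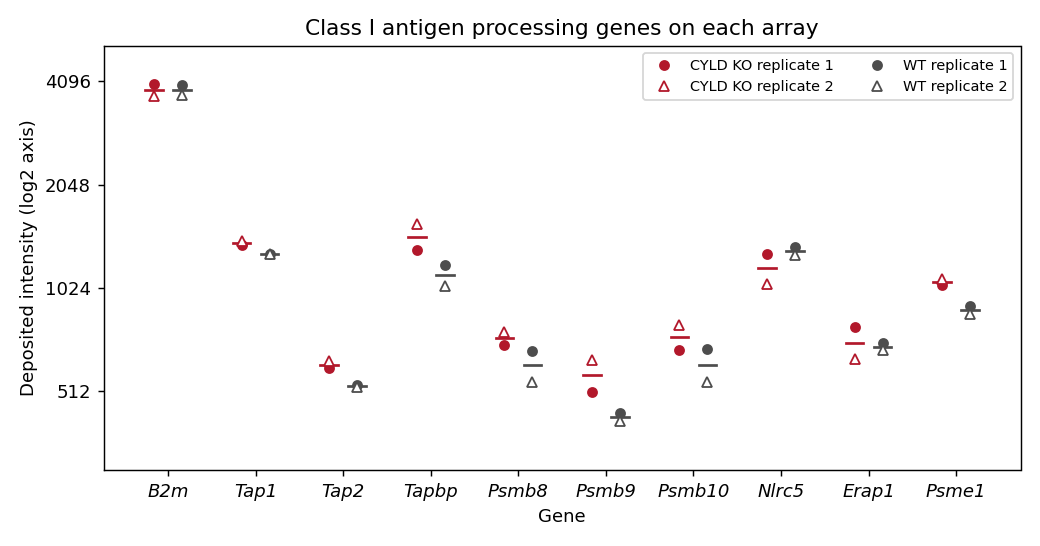
Deposited intensity (log2 axis) of the 10 class I antigen processing genes, with knockout arrays in red left of wild-type arrays in grey; circles are replicate 1, triangles replicate 2 and bars the mean of 2. Knockout arrays lie above wild-type arrays in 6 genes, and the groups overlap in B2m, Psmb10, Nlrc5 and Erap1.

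The small differences leaned one way. The log2 fold change was above 0 in 9 of 10 members, with a median of 0.24, beside a median of -0.02 over all tested genes, of which 46.7% were above 0. Both knockout arrays read above both wild-type arrays in 6 members, Tap1, Tap2, Tapbp, Psmb8, Psmb9 and Psme1, and below them in 0. Over all tested genes the first order was seen in 22.5% and the second in 26.2%; the first held for 30.4% of the 2179 that were at least as bright as the dimmest member. Wild-type replicate 2 read below wild-type replicate 1 in 10 of 10 members, and in 64.9% of those 2179 genes. Without wild-type replicate 2 the members' median was 0.11.

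The peptide transporter genes differed little. Tap1, a subunit of the TAP pump, read 1365 and 1401 in knockout cells, against 1284 and 1281 in wild-type cells. Tap2, its partner subunit, read 595 and 625 in knockout cells, against 531 and 524 in wild-type cells. In both genes the groups did not overlap and the arrays of a group lay close together. The log2 fold changes were 0.11 (95% interval -0.22 to 0.44) for Tap1 and 0.21 (-0.12 to 0.54) for Tap2, and neither passed (limma adjusted p = 0.77 and 0.52).

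Tapbp encodes tapasin, which bridges the transporter and the empty class I molecule and edits the peptide. It read 1314 and 1570.1 in knockout cells, against 1193 and 1036 in wild-type cells, a mean of 1442 ± 181 against 1114 ± 111 (SD, n = 2 each). The groups did not overlap, and knockout replicate 2 was the highest array. The difference on the log2 scale was 0.37 ± 0.17 (SE; adjusted p = 0.187 in limma), and with a variance that follows intensity the adjusted p was 0.0333. Another pair of probe sets annotated with Tapbp and a ribosomal protein gene together was not used; both read lower on the knockout arrays with no overlap between the groups (log2 fold changes -0.37 and -0.40), and the signal of the 2 genes cannot be told apart there.

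All 3 immunoproteasome genes had log2 fold changes above 0. Psmb9, the beta-1i catalytic subunit, read 506 and 629 in knockout cells, against 442 and 418 in wild-type cells. Psmb8, the beta-5i subunit that is the target of immunoproteasome inhibitors, read 698 and 758 in knockout cells, against 670.5 and 545 in wild-type cells. Psmb10, the beta-2i subunit, read 674 and 794 in knockout cells, against 677 and 541 in wild-type cells. Knockout replicate 2 was the highest of the 4 arrays in all 3 genes, wild-type replicate 2 the lowest, and in Psmb10 knockout replicate 1 read just below wild-type replicate 1.

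Psmb9 had the largest log2 fold change of the 10 members, 0.39 ± 0.17 (SE; 95% interval 0.06 to 0.73; limma adjusted p = 0.152). Psmb8 and Psmb10 both had 0.27, with adjusted p = 0.383 and 0.372. Leaving out wild-type replicate 2 moved them to 0.12 and 0.11, and leaving out its fellow array to 0.42 and 0.43. Without knockout replicate 1, Psmb9 had 0.55 and an adjusted p of 0.0277; without knockout replicate 2 it had 0.24. Its mean intensity was 567 ± 86.6 in knockout cells and 430 ± 16.9 in wild-type cells (SD, n = 2 each), so the knockout arrays spread more than the wild-type ones. Tap1, which faces Psmb9 across the interval printed above, had a log2 fold change of 0.11.

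Each inducible subunit replaces a constitutive one when a proteasome is assembled, so the change of the pair was compared within each array. Psmb5, the counterpart of Psmb8, read 1616.5 and 1637 in knockout cells, against 1653 and 1543 in wild-type cells. Psmb6, the counterpart of Psmb9, read 403 and 450 in knockout cells, against 462 and 349 in wild-type cells. Psmb7, the counterpart of Psmb10, read 1326 and 1618 in knockout cells, against 1096 and 1117 in wild-type cells. The first 2 overlapped between the groups, and Psmb7 did not.

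The log2 ratio to the counterpart, knockout minus wild type, differed by 0.24 for Psmb8, by 0.31 for Psmb9 and by -0.13 for Psmb10. A two-sided exact permutation test gave p = 0.333 for the Psmb8 and Psmb9 pairs and p = 1 for the Psmb10 pair (0.5, 0.5 and 1 after Benjamini-Hochberg adjustment over the 3 pairs). With 2 arrays against 2 the smallest p possible is 0.333, so this permutation test could not pass the threshold.

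Psme1 encodes PA28 alpha, a cap subunit that opens the proteasome and is induced by interferon-gamma. It read 1044 and 1088 in knockout cells, against 907 and 856 in wild-type cells. One of the interferon matches printed above lies in this gene, after its start. The groups did not overlap, and the gap between replicates was small in both groups. The log2 fold change was 0.27 (95% interval -0.06 to 0.61; limma adjusted p = 0.369). Its partner gene Psme2, PA28 beta, read 1351 and 1467 in knockout cells, against 1174 and 1207 in wild-type cells (log2 fold change 0.24, adjusted p = 0.442).

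For the light chain gene B2m the means of the genotypes nearly coincided. It read 4021 and 3720.0 in knockout cells, against 4000.1 and 3738 in wild-type cells. The arrays of the 2 groups interleaved, and the spread within each group exceeded the difference between their means, 3870.4 ± 213 in knockout cells and 3869 ± 186 in wild-type cells (SD, n = 2 each). The log2 fold change was 0.00031 with a 95% interval from -0.33 to 0.33 (limma adjusted p = 0.9996), or 0.79-fold to 1.26-fold.

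Erap1 encodes the aminopeptidase that trims peptides in the endoplasmic reticulum. It read 783 and 632 in knockout cells, against 705 and 673 in wild-type cells. The knockout arrays lay on both sides of the wild-type ones, with a log2 gap of 0.31 between them, against 0.07 between the wild-type arrays. The log2 fold change was 0.03 (95% interval -0.30 to 0.36; limma adjusted p = 0.944), and without knockout replicate 1 its sign turned, to -0.13.

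**Figure D2:**
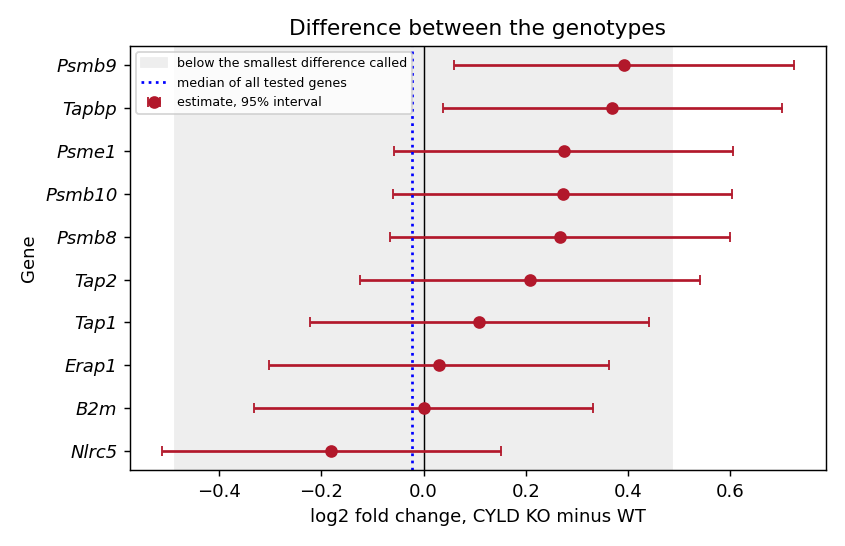
Log2 fold change, knockout minus wild type, of each of the 10 genes with its 95% interval from limma (2 arrays per group); the grey band holds differences smaller than the smallest one called, 0.49, and the dotted line is the median of all tested genes, -0.02. Every estimate lies inside the band, 9 above 0 and Nlrc5 below it.

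Nlrc5, the transactivator, was the one member with a log2 fold change below 0. Its brightest probe set read 1282 and 1048 in knockout cells, against 1349 and 1279 in wild-type cells. Knockout replicate 2 was the lowest array, and knockout replicate 1 lay between the wild-type arrays. On the log2 scale the difference was -0.18 ± 0.17 (SE; 95% interval -0.51 to 0.15; adjusted p = 0.596 in limma).

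The array carried 19 probe sets for Nlrc5, which report on the same RNA samples and are not replicates. Their log2 fold changes ran from -0.45 to 0.09 with a median of -0.14, and 18 of 19 were below 0. Both knockout arrays lay below both wild-type arrays in 6 of them and above in 0. Knockout replicate 2 was the lowest array in 18 of 19, and knockout replicate 1 in 0. Against the wild-type mean, the median over the probe sets was -0.0038 for knockout replicate 1 and -0.33 for knockout replicate 2.

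**Figure D3:**
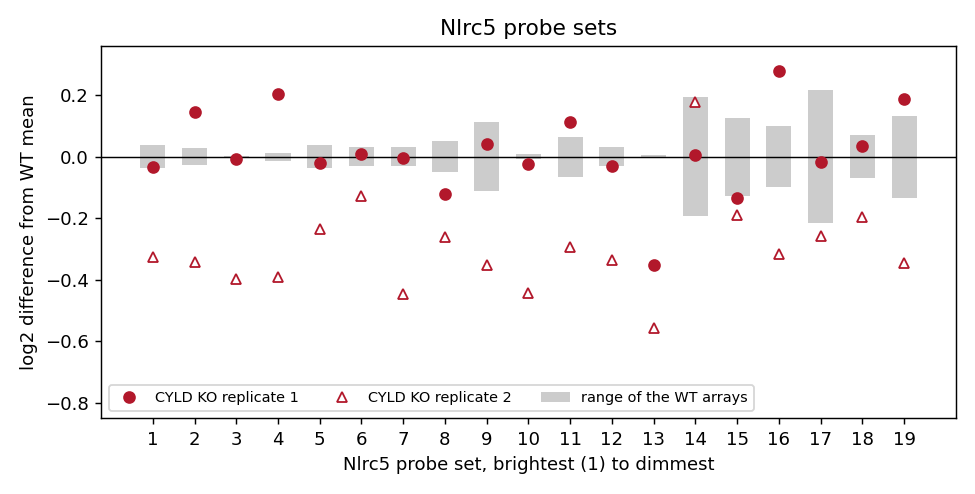
Log2 difference from the wild-type mean for each of the 19 Nlrc5 probe sets, ordered by mean intensity; filled circles are knockout replicate 1, open triangles knockout replicate 2, and grey bars span the 2 wild-type arrays. The triangles lie below 0 in 18 probe sets, while the circles lie above 0 in 9.

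The members were not alike in how they differed between the knockout replicates. Knockout replicate 2 read above knockout replicate 1 in 7 members, among them the 3 immunoproteasome genes and Tapbp, and below it in B2m, Nlrc5 and Erap1. It read above in 46.2% of all tested genes, and in 48.3% of those at least as bright as the dimmest member. The log2 gap between the knockout arrays was 0.31 in Psmb9, 0.31 in Erap1 and 0.29 in Nlrc5, and 0.04 in Tap1. Over the 10 members the median lay 0.18 above the wild-type mean on the log2 scale for knockout replicate 1 and 0.27 above it for knockout replicate 2. By Euclidean distance of log2 values centred over the 4 arrays, the tested genes nearest to Psmb9 were Ccr4, Slc1a5 and Ccz1, at distances of 0.02, 0.02 and 0.03, with log2 fold changes of 0.38, 0.41 and 0.37; none of the 3 passed the test.

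Constitutive proteasome genes likewise gave no calls. Of 17 tested genes for core subunits and assembly factors, 0 were higher and 0 lower by limma's adjusted p, and the median log2 fold change was 0.26. Without knockout replicate 2 that median was 0.14, and without knockout replicate 1 it was 0.35. Psma1, an alpha-ring subunit, read 1315 and 1483 in knockout cells, against 1079.8 and 1234 in wild-type cells. Psma2 read 234 and 324 in knockout cells, against 226 and 234 in wild-type cells. Both knockout arrays were above both wild-type arrays in 9 of the 17, beside 22.5% of all tested genes and 30.4% of those at least as bright as the dimmest class I member. Among 19 genes of the caps and activators 0 were called and the median was 0.14; Psme3, an activator of nuclear proteasomes, had -0.01. No test of these lists against the members was made.

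Other steps of class I loading were read in the same fit. Of 12 tested chaperone and translocation genes, 0 were higher and 0 lower, with a median log2 fold change of 0.02; Calr and Canx, the lectin chaperones calreticulin and calnexin, had 0.09 and -0.08. The 8 tested class I heavy chain genes and relatives had a median of 0.06. Of them 0 were higher and 1 was lower, beside 8.3% of all tested genes called in either direction. This was H2-T24, a nonclassical class I gene, at 211 and 217 in knockout cells, against 406 and 331 in wild-type cells (log2 fold change -0.77, limma adjusted p = 1.99e-04). The call was lost without wild-type replicate 1 (adjusted p = 0.155), and heavy chain genes are near-identical in places, so the value may include signal of relatives. The classical genes H2-K1 and H2-D1 had no probe set with exactly 1 symbol and were not analysed here.

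Of 22 tested regulators of the class I genes, 1 was higher and 1 lower, near the 8.3% called over all tested genes, with a median log2 fold change of -0.10. Prdm1, which encodes the repressor Blimp-1 of effector lymphocytes, read 692 and 624 in knockout cells, against 401 and 341 in wild-type cells (log2 fold change 0.83, limma adjusted p = 5.07e-05, but 0.0677 without wild-type replicate 2). Ifngr2, the signalling chain of the interferon-gamma receptor, read 330.1 and 323 in knockout cells, against 503 and 428 in wild-type cells (log2 fold change -0.50, adjusted p = 0.0388). Ifngr2 had an adjusted p between 0.0865 and 0.617 without knockout replicate 2 or either wild-type array. Irf1, an activator of Psmb9 and Tap1 chosen after its value was seen, read 978 and 775 in knockout cells, against 700.4 and 766 in wild-type cells, and did not pass (0.25, adjusted p = 0.427).

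The MHC class II pathway presents peptides to CD4 T cells. Of its 12 tested genes 6 were higher and 3 lower, beside 4.79% and 3.50% of all tested genes, with a median log2 fold change of 0.47; the list was not tested against others. Cd74, the invariant chain that guards the class II groove, read 1667 and 2050.3 in knockout cells, against 553 and 502 in wild-type cells (1.81, limma adjusted p = 8.05e-24). H2-DMa, a subunit of the class II peptide editor, read 881 and 1115 in knockout cells, against 663 and 531 in wild-type cells (0.74, adjusted p = 4.49e-04). Cd80, a costimulatory ligand and not a class II gene, had a log2 fold change of 1.37 and was higher, and H2-Ob, a subunit of the inhibitor of H2-DM, fell by 1.03. The related ligand gene Cd86, also not a class II gene and named after its value was seen, was among the lower genes (-0.69). The class II chain genes H2-Ab1 and H2-Eb1, also named after their values were seen, were among the higher genes (0.57 and 0.57). Without knockout replicate 2 they had 0.30 and 0.26. The chain gene H2-Aa did not pass (0.45, limma adjusted p = 0.0820). Leaving out knockout replicate 2 left 3 genes higher and 3 lower. Leaving out wild-type replicate 1 left 3 higher and 1 lower, and leaving out its fellow array 2 higher and 1 lower, with an adjusted p of 0.205 for H2-DMa. Summed dendritic cell markers read 980.0 and 1034 in knockout cells, against 956 and 1010 in wild-type cells, with 0 of 7 tested members past the threshold. Summed B cell markers read 690 and 642 against 692 and 695, with 0 of 4. This sum mixes directions. Both knockout arrays were above both wild-type arrays in 3 of the 4 and below them in 1, Cd79b, beside 22.5% and 26.2% of all tested genes. The part of dendritic and B cells, and that of the lower macrophage markers, was not tested.

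**Figure D4:**
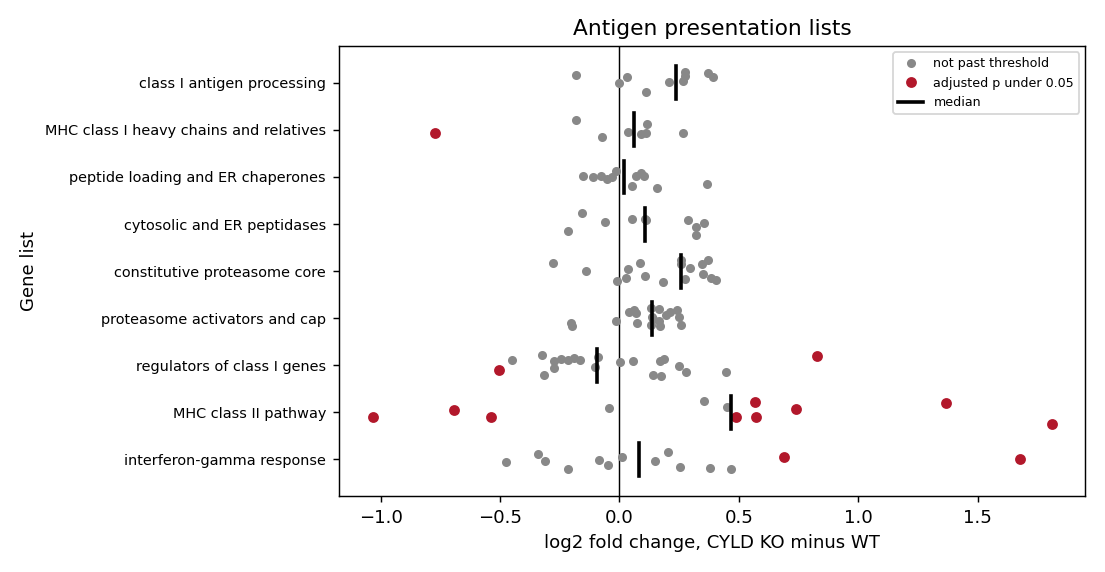
Log2 fold change, knockout minus wild type, of each tested gene in the 10-gene class I set and 8 related lists; red points passed limma's adjusted p under 0.05 and black bars are list medians. The class I set (median 0.24) and the constitutive proteasome core (0.26) hold no red point, and the class II pathway holds 9.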

How the data were processed

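Total RNA of sorted Treg cells was hybridised as biotinylated cRNA, per the labels' protocols. The authors deposited linear intensities, 26.6 to 7205, with medians of 99.0 to 105 per array; their summarisation and scaling are not given in the sources used here. No detection call was used, and background in the signal understates folds of dim genes. Of 35557 probe sets, 21789 had exactly 1 symbol in a platform annotation of 2016, 1621 several and 12147 none listed; Entrez identifiers of 21698 matched RefSeq.

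Values were converted to log2(intensity + 1), so fold changes are on that scale. Each gene kept its brightest probe set by mean, and the 13956 genes whose mean log2 value exceeded the 30th percentile (6.29) were tested. Knockout was compared with wild type by limma 3.58.1 in R 4.3.3 (lmFit, eBayes; two-sided), with Benjamini-Hochberg adjustment over all tested genes and a threshold of 0.05. Because limma estimated infinite prior degrees of freedom, all log2 fold changes share a standard error of 0.17, and each interval rests on a spread pooled over genes; 2 arrays per group limit the precision. The fit was tested on simulated data in which all genes shared 1 spread, so it cannot check whether pooling suits these data. There it recovered 52.2% of 1.5-fold rises, 99.1% of 2-fold rises and 100% of 4-fold rises.

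The members and lists were chosen with earlier results of these data known. The text names all members, Cyld, up to 4 called genes per list (otherwise its first 2 measured) and some first-listed markers. Psmb5, Psmb6, Psmb7, the proliferation and the sex-linked genes were chosen later. Alternatives covered the filter, scaling, pseudocount, variance model, probe set choice, array weights, replicate block and each array left out. Marker lists of plasma cells, CD8 T cells, NK cells, granulocytes and erythroid cells were also read. One promoter motif search is not reported here.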

Additional observations from a re-analysis of the deposited data

How the results depend on the processing

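Under 15 alternatives 0 members were lower, and 0 were higher except 1 with an intensity trend in the variance (Tapbp) and 0 to 1 when each array was left out (Psmb9 without knockout replicate 1). Psmb9, Tapbp, Tap1, Tap2, Psmb8, Psmb10, Psme1 and Nlrc5 kept their sign under all 15. When each array was left out, B2m ran from -0.056 to 0.056 and Erap1 from -0.13 to 0.18; both were below 0 without knockout replicate 1 and without wild-type replicate 2 (B2m -0.049, Erap1 -0.0037). B2m moved most with quantile normalization, to a log2 fold change of 0.13 (limma adjusted p = 0.718). The members' median log2 fold change was 0.11 to 0.27 over the settings that leave out an array. Over all genes the calls were 669 higher and 489 lower; leaving out an array gave 252 to 918 higher and 118 to 767 lower. With no pooling of variances there were 0 higher and 0 lower genes, so every call in the text rests on the pooled spread. At an unadjusted p under 0.05 there were then 1814 genes and 3 members, Tap1, Tap2 and Psme1. Psmb9 and Tapbp, the 2 members at that level in the pooled fit, were not among them. With the replicate number as a block 603 genes were higher and 429 lower; the correlation of same-numbered deviations was -0.09, so the numbers were not taken to pair the arrays. Of the list genes named above with values, the block ended the call of Ifngr2 (adjusted p = 0.0579). For Icam1 the adjusted p was 0.100 and 0.0758 when wild-type replicates 1 and 2 were left out in turn.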

Other observations

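Of 14 tested genes of the interferon-gamma response, 2 were higher and 0 lower in the knockout, beside 4.79% and 3.50% of all tested genes, with a median log2 fold change of 0.08. Cxcl10, a chemokine ligand of CXCR3, read 753 and 772 in knockout cells, against 240.2 and 235 in wild-type cells (log2 fold change 1.68, limma adjusted p = 1.98e-20), and Icam1, an adhesion ligand of LFA-1, read 546 and 469 in knockout cells, against 311 and 316 in wild-type cells (0.69, adjusted p = 0.00147). Both are also known as NF-kB targets. Of 10 tested cytosolic and endoplasmic reticulum peptidases, 0 were higher and 0 lower, with a median of 0.11; Lap3 and Npepps, aminopeptidases, had -0.16 and 0.11.

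Among the other cell types whose markers were read, plasma cell markers had 1 of 3 tested members higher (Prdm1, which Treg cells also express), CD8 T cell markers 0 of 2, NK cell markers 1 of 2 (Eomes), granulocyte markers 0 of 2, and no erythroid marker was bright enough to be tested.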
